A study of Mus musculus with 9 samples.

Results

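Lbx1, Barhl1, Barhl2, Barx1, Hmx1, Hmx2, Hmx3, Tlx1, Tlx2 and Tlx3 are 10 mouse genes of the NK-like branch of the homeobox family, and their RING1B peaks were taken from 2 deposited peak lists, 1 per genotype. A peak was counted for a gene when the nearest gene that the authors assigned to it was exactly 1 of these names. The Eed-/- list held 13 such peaks among 1810 and named 9 of the 10 genes among 1587. The Eed+/+ list held 17 such peaks among 2347 and named all 10 genes among 1919.

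RING1B was immunoprecipitated from Eed-/- and Eed+/+ mouse embryonic stem cells (mESCs) of the C57BL/6 strain, and the DNA recovered with it was sequenced (single-end ChIP-seq). The Eed-/- cells are a constitutive knockout of Eed and the Eed+/+ cells are wild type. The Eed-/- RING1B library comprised 70343706 mapped tags from 3 lanes and the Eed+/+ RING1B library 16814546 mapped tags from 1 lane, so the Eed-/- cells were sequenced 4.18 times as deeply, and input DNA from Eed+/+ cells comprised 52569530 tags. The labels number the Eed-/- lanes as replicates but peaks were called once per genotype, so no value below has a replicate error, no test was made between the genotypes, and intervals cover counting error only. Peak lists hold no expression values, so neither the loss of Eed nor the cell type could be checked from them.

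RING1B is the catalytic subunit of Polycomb repressive complex 1 (PRC1), which places ubiquitin on histone H2A. EED is a core subunit of PRC2, the complex that methylates histone H3 at lysine 27 (H3K27me3), a mark to which the CBX proteins of PRC1 bind. Genes for developmental transcription factors with CpG island promoters are the best known targets of both complexes in mESCs, where such genes are silent. The homeobox genes described here act later, in sensory organs, in the hindbrain and dorsal spinal cord, in muscle precursors and in the spleen and stomach.

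Of the 10 genes, 8 had a promoter entry in the RefSeq table used here (GRCm38), 10 promoters in all because Barhl1 and Hmx2 have 2 each, and each was located in mm9 by an exact match. The entries run from 250 bases before a start site to 50 bases after it. All 5 promoters of Barhl1, Hmx2 and Hmx3 are shown, because among the genes with an entry these hold the start sites at which the genotypes differed or RING1B was not called, with that of Barhl2, a promoter within peaks of both genotypes, beside them. Every CG dinucleotide, the site of DNA methylation in mammals and the feature that defines a CpG island, is in capitals. The Barhl1 inner window lay only partly within the Eed-/- peak, which ended at 28768189.
Hmx3 promoter, chr7:138686227-138686526, + strand, in an Eed+/+ peak only: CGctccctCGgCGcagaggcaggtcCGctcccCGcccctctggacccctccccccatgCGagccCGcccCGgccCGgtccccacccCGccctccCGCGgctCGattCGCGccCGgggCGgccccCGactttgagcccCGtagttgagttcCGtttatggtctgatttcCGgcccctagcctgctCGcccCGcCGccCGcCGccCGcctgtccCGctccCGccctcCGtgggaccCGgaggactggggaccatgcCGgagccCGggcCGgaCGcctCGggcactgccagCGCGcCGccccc
Hmx2 promoter nearer to Hmx3, chr7:138692021-138692320, + strand, in an Eed+/+ peak only: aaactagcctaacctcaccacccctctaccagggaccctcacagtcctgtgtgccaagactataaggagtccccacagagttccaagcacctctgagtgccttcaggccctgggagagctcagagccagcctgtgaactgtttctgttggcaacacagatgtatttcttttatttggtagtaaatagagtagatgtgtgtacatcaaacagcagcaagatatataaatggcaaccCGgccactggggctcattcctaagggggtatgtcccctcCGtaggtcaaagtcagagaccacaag
Hmx2 promoter at the gene, chr7:138697557-138697856, + strand, in peaks of both genotypes: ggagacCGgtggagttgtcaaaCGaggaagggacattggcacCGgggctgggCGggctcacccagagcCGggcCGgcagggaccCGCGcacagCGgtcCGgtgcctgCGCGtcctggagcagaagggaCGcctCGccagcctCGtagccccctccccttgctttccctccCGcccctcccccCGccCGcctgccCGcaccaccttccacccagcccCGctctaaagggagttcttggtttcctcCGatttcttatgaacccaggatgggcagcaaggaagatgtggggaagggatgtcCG
Barhl1 promoter at the gene start, chr2:28772139-28772438, - strand, in no peak: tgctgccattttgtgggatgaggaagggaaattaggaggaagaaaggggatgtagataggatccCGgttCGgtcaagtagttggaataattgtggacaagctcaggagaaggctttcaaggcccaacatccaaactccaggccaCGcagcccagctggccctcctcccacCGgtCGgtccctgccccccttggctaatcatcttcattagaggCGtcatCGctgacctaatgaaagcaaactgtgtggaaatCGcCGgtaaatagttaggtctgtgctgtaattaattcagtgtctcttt
Barhl1 inner promoter, chr2:28767966-28768265, - strand, in peaks of both genotypes: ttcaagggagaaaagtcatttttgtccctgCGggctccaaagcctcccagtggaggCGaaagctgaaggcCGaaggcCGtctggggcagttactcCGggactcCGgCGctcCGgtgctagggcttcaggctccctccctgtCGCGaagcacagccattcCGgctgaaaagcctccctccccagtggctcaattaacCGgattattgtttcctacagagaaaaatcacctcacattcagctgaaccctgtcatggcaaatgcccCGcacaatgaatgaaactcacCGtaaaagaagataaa
Barhl2 promoter, chr5:106887136-106887435, - strand, in peaks of both genotypes: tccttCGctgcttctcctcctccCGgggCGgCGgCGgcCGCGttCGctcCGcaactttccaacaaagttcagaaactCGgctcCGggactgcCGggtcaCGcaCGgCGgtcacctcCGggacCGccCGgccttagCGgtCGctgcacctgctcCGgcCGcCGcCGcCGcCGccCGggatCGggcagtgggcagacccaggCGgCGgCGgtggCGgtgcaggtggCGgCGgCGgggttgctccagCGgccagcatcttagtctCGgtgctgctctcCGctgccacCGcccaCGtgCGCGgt

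The capitals differ widely between these windows. The Hmx3 promoter holds 39 CG dinucleotides and the Hmx2 promoter at the gene 22, against 2 in the other Hmx2 window. Both Barhl1 windows are poorer, with 14 in the inner promoter and 9 at the gene start, and the Barhl2 promoter holds 42. Of the promoters not printed, Barx1 has 50, Hmx1 38, Tlx3 18 and Tlx1 16. The median over the 10 was 20, against 7 (quartiles 3 and 20) over 32851 promoters of the table. The Hmx3 window thus held more CG than the Hmx2 window at the gene, yet only the Hmx2 window lay in an Eed-/- peak.

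Further motifs were searched on both strands of the 10 windows, as a description of the letters only. CCAAT occurred in 3 of 10 windows (Hmx2 at the gene, Tlx1 and Tlx3), against 37.4% of all promoters. TATAAA occurred in 1, the CG-poor Hmx2 window, against 13.6%, and GAGAG in 5, against 62.0%. GCCATNTT, which includes the core bound by YY1, the mammalian homologue of a fly Polycomb recruiter, occurred in 1, the Barhl1 promoter at the gene start, against 6.05%. Matches of different motifs were counted separately, whether or not they overlapped.

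RING1B was called in both genotypes at 9 of these genes, over shorter stretches in Eed-/- mESCs, and at Hmx3 in Eed+/+ mESCs alone. All 13 Eed-/- peaks (100%, exact 95% interval 75.3% to 100%) overlapped an Eed+/+ peak by at least 1 bp, against 73.1% of all Eed-/- peaks, but 46.2% did when the overlap had to cover 50% of both peaks. In the other direction 10 of the 17 Eed+/+ peaks (58.8%, 32.9% to 81.6%) overlapped an Eed-/- peak, near the 53.1% of all Eed+/+ peaks. That share was 35.3% at an overlap of 50% of both peaks, 23.5% with an FDR limit of 1% and 17.6% with Eed-/- peaks held to more than 100 tags at the Eed+/+ depth. At least 1 overlapping pair was present at 9 of the 10 genes, against 60.7% of all genes named in the Eed+/+ list, and Hmx3 was the exception. A share per gene can rise with the number and width of its peaks, and it was not adjusted for either. The 10 genes had 17 Eed+/+ peaks of median width 4452 bp, against 2347 peaks of 2665 bp for 1919 genes in the whole list. Under the same 3 settings the number of genes with a pair was 6, 4 and 3 in that order. Overlap shares of the whole lists are not given here at these settings. Whether the falls are particular to these genes is therefore not known. The summed width of the Eed-/- peaks was below that of the Eed+/+ peaks at all 9 genes with a peak in both lists, against 75.2% of all such genes.

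**Figure D1:**
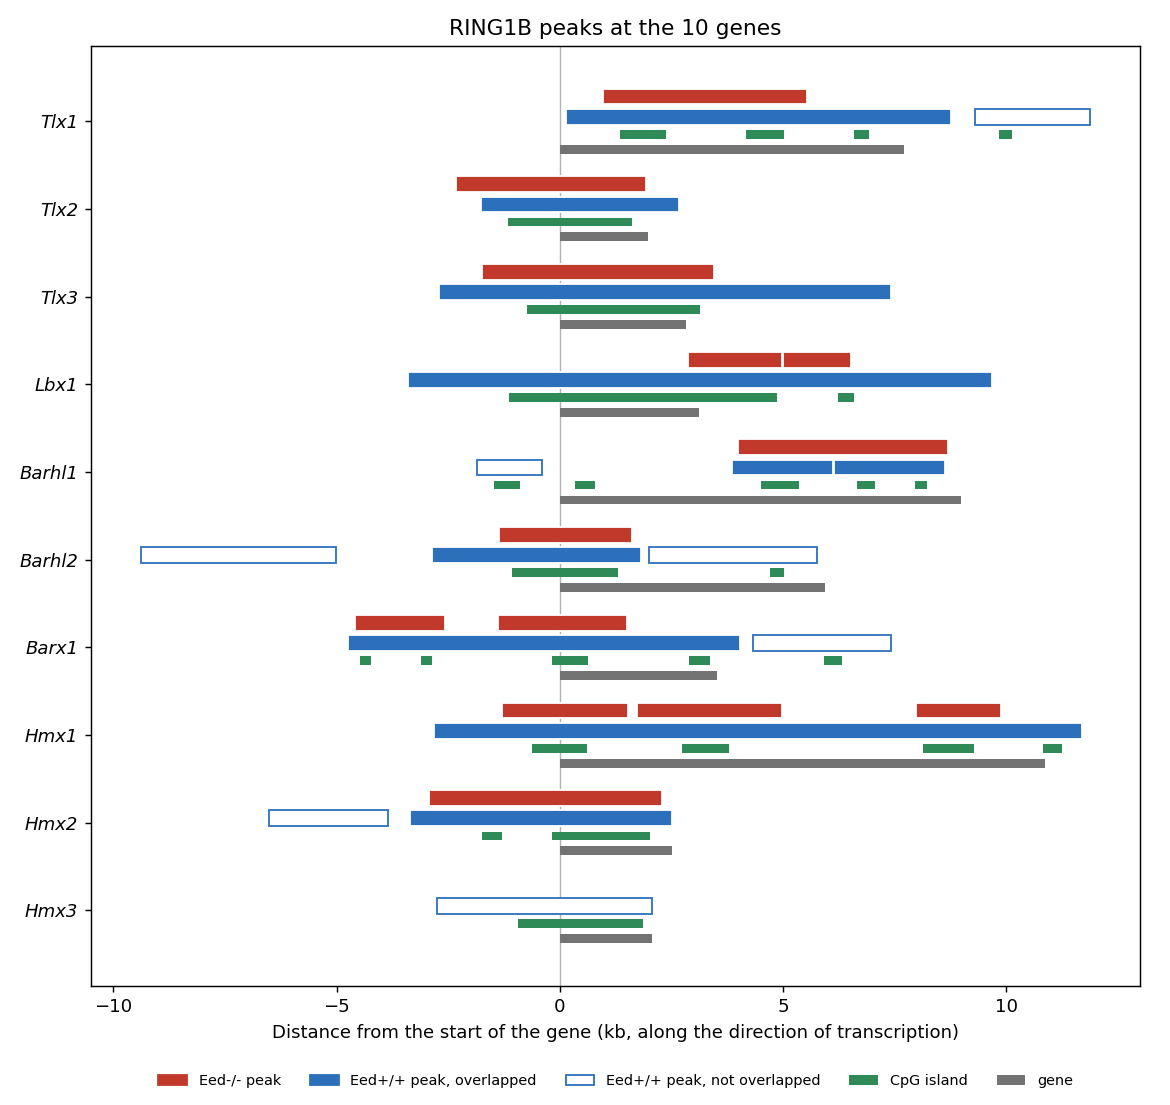
RING1B peaks at the 10 genes by distance from the annotated gene start in kb, along the direction of transcription, with Eed-/- peaks (red) above Eed+/+ peaks (blue), CpG islands (green) and the gene (grey). A filled box marks a peak with an overlap in the other list: this holds for 13 of 13 in Eed-/- and for 10 of 17 in Eed+/+ cells, and the 7 open boxes are all Eed+/+.

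Tlx1, Tlx2 and Tlx3 encode the T-cell leukaemia homeobox proteins. Tlx1 is required for the spleen, and its human orthologue is activated by translocation in T-cell leukaemia. Tlx1 occupies positions 45223726 to 45231433 of chromosome 19 (mm9, + strand). In Eed-/- mESCs its peak, 45224702 to 45229265, had 398 tags and a fold enrichment, the authors' ratio over background, of 3.34. In Eed+/+ mESCs the peak around it, 45223867 to 45232482, had 1163 tags and a fold enrichment of 24.6. Their summits, the positions of highest tag pileup, lay 49 bp apart in a coding exon. A second Eed+/+ peak past the end of the gene, from 45233028 to 45235599 with 161 tags and a fold enrichment of 17.1, was not overlapped.

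Tlx2 acts in the enteric nervous system, and was the gene at which the genotypes were closest in extent. The gene spans 83018311 to 83020287 on chromosome 6 (- strand). Its Eed-/- peak ran from 83018352 to 83022609, 4258 bp, with 554 tags and a fold enrichment of 6.57. The Eed+/+ peak ran from 83017612 to 83022063, 4452 bp, with 1026 tags and a fold enrichment of 34.4. The summits were 1 bp apart, and both peaks covered a single CpG island of 2785 bp over the promoter and most of the gene. On its upstream side the Eed-/- peak extended past the Eed+/+ peak, and its level was the highest of the 13 Eed-/- peaks.

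Tlx3 directs dorsal spinal neurons towards a glutamatergic (excitatory) fate. On chromosome 11, where it spans 33100752 to 33103588 (- strand), peaks of both genotypes covered the whole gene. The one in Eed-/- mESCs, 33100130 to 33105332, had 557 tags and was enriched 4.71-fold. The one in Eed+/+ mESCs, 33096172 to 33106286, had 1286 tags and was enriched 24.1-fold. The shorter Eed-/- peak spanned 51.4% of the Eed+/+ peak, with the summits 23 bp apart in an intron. It contained the gene's CpG island of 3882 bp, and the Eed+/+ peak ran on further downstream of the gene.

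Lbx1, which opposes Tlx3 in dorsal spinal neurons in favour of the GABAergic (inhibitory) fate and is needed for muscle precursors to migrate into the limb, led the 10 genes in fold enrichment in Eed+/+ cells, though not in level (8.53 tags per kb per 1000000 mapped tags, rank 263 of 2347). Its position is 45307178 to 45310301 on chromosome 19 (- strand). In Eed-/- mESCs 2 peaks lay at its 3' end and beyond, from 45305333 to 45307427 (172 tags, fold enrichment 4.90) and from 45303775 to 45305294 (135 tags, 4.84). A single Eed+/+ peak, 45300619 to 45313699, had 1876 tags and a fold enrichment of 71.9, rank 3 of 2347. The Eed-/- peaks covered 8.00% of the gene and no start site, whereas the Eed+/+ peak covered the whole gene with its start site. The CpG island over the promoter and gene is 5999 bp long with 415 CG dinucleotides, the longest of the 10 genes, and the Eed-/- peaks covered only its downstream part. The summits of the paired peaks were 3598 bp apart, the widest separation of the 10 pairs, and the 2 Eed-/- peaks together covered 27.6% of the Eed+/+ peak.

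Barhl1 and Barhl2 are the mouse counterparts of fly BarH genes. Barhl1 is needed for the survival of cochlear hair cells and acts in migrating hindbrain and cerebellar neurons, and of the 10 genes its strongest Eed+/+ peak had the lowest fold enrichment. Barhl1 spans 28763199 to 28772188 on chromosome 2 (- strand). Its Eed-/- peak, 28763492 to 28768189, had 302 tags with 3.98-fold enrichment, and its 64.3 tags per kb placed it 1795 of 1810 in its list by level. The Eed+/+ list split the same stretch into a peak from 28763560 to 28766039 (128 tags, fold enrichment 13.5) and a peak from 28766065 to 28768333 (128 tags, 10.8). Both Eed+/+ peaks had a fold enrichment under the median of all Eed+/+ peaks, 16.2. Together they lie over the inner promoter printed above and the coding exons downstream of it. The third Eed+/+ peak, from 28772596 to 28774052 (126 tags, fold enrichment 11.5), lay upstream of the gene start over a CpG island of 595 bp and was not overlapped, and the promoter at the gene start, between these peaks, was called in neither genotype.

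Barhl2 acts in the subtype choice of retinal amacrine and ganglion cells and in the dorsal spinal cord. The gene spans 106881533 to 106887469 on chromosome 5 (- strand). In Eed-/- mESCs there was 1 peak, 106885850 to 106888841, with 293 tags and a fold enrichment of 6.68, the highest of the 13 Eed-/- peaks. It lay within the middle of 3 Eed+/+ peaks, which ran from 106885654 to 106890334 with 843 tags and a fold enrichment of 55.8, over the promoter and a CpG island of 2370 bp. The Eed+/+ peaks on either side had no Eed-/- counterpart. The downstream peak from 106881713 to 106885471 (411 tags, fold enrichment 31.6) lay within the gene, covered 63.3% of it and ended 378 bp short of the Eed-/- peak. The upstream peak from 106892491 to 106896846 (332 tags, 22.6) lay 3649 bp from it and covered no CpG island.

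Barx1 specifies stomach mesenchyme and acts in the molar tooth germ. It is found at 48758367 to 48761876 on chromosome 13 (+ strand). In Eed-/- mESCs 1 peak covered the start site, from 48756975 to 48759866 (207 tags, fold enrichment 5.38), and another lay upstream, from 48753779 to 48755793 (140 tags, 4.45). In Eed+/+ mESCs a peak with 1255 tags, 48753624 to 48762402, was enriched 16.95-fold and contained both. Each Eed-/- peak sat on CpG islands, the promoter one with 108 CG dinucleotides in 811 bp, while the island at the 3' end of the gene was inside the Eed+/+ peak only. A further Eed+/+ peak downstream, from 48762683 to 48765779 (243 tags, fold enrichment 28.0), was not overlapped, although its fold enrichment was above that of the overlapped one.

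Hmx1 acts in the development of the eye and the outer ear. The gene spans 35731507 to 35742379 on chromosome 5 (+ strand). In Eed-/- mESCs 3 peaks lay along it, from 35730211 to 35733024 at the start site (308 tags, fold enrichment 4.41), from 35733231 to 35736471 (331 tags, 6.35) and from 35739478 to 35741384 (218 tags, 6.32). In Eed+/+ mESCs 1 peak of 14524 bp, 35728688 to 35743211, contained all 3, with 1955 tags and a fold enrichment of 45.25, and was the widest of the 17. Each of the 3 Eed-/- peaks held 1 CpG island, of 1235, 1047 and 1141 bp in that order along the gene. The fourth island under the Eed+/+ peak, 414 bp at the end of the gene, was in no Eed-/- peak. The start of the gene E130018O15Rik, on the other strand, lies 382 bp away under the same peaks, so the tags at the start site cannot be assigned to either gene.

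Hmx2 and Hmx3 are neighbours with shared roles in the vestibular inner ear and the hypothalamus, and they differed in what was called in Eed-/- mESCs. Hmx2 is at 138697576 to 138700096 on chromosome 7 (+ strand). Its Eed-/- peak, 138694643 to 138699873, had 457 tags and 5.15-fold enrichment. Its main Eed+/+ peak, 138694217 to 138700088, had 996 tags and 34.9-fold enrichment, and the Eed-/- peak spanned 89.1% of it with the summits 87 bp apart. A second Eed+/+ peak, from 138691061 to 138693722 (134 tags, fold enrichment 11.3), covered the CG-poor Hmx2 window printed above and no CpG island, and was not overlapped.

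Hmx3 lies 9137 bp upstream of Hmx2, from 138686381 to 138688439 (+ strand), and was the 1 gene of the 10 with no Eed-/- peak. Its Eed+/+ peak, 138683625 to 138688442, had 985 tags, 65.7-fold enrichment and a level of 12.2 tags per kb per 1000000 mapped tags. That fold enrichment ranked 14 of 2347 in the Eed+/+ list and 5 of the 1100 Eed+/+ peaks without an Eed-/- overlap. The peak covered the whole gene with a CpG island of 2807 bp and 246 CG dinucleotides, more than the 162 of the larger Hmx2 island, which an Eed-/- peak did cover. The nearest Eed-/- peak was that of Hmx2, 6200 bp away. The list gives no tag count where no peak was called, and the lowest level of any Eed-/- peak was 0.849, so the Eed-/- level at Hmx3 is not known from the list.

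Strong Eed+/+ peaks without an Eed-/- call were the minority. Among the Eed+/+ peaks in the highest 10% by fold enrichment, 80.9% were overlapped. Of the 4 member peaks in those 10%, those of Lbx1, Barhl2 and Hmx1 were overlapped and that of Hmx3 was not. The other 6 unoverlapped member peaks had fold enrichments from 11.3 to 31.6 and were further peaks of genes that also had an overlapped one. The strongest of these 6 lay inside Barhl2 and covered 63.3% of that gene. The median fold enrichment of the 7 was 22.6, against 29.5 for the 10 that were overlapped, and the range of the 7 lies within that of the 10.

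The fold enrichment of RING1B at these genes was lower in Eed-/- mESCs. Fold enrichment of the 13 Eed-/- peaks ran from 3.34 at Tlx1 to 6.68 at Barhl2, with a median of 4.90, close to the 4.91 of all Eed-/- peaks. Fold enrichment of the 17 Eed+/+ peaks ran from 10.8 at Barhl1 to 71.9 at Lbx1, with a median of 24.6, against 16.2 for all Eed+/+ peaks. Fold enrichment was lower in Eed-/- than in Eed+/+ cells in 10 of 10 overlapping pairs, as in 99.8% of all pairs. None of the 13 Eed-/- peaks (0%, exact 95% interval 0% to 24.7%) was in the highest 10% of its list, against 4 of the 17 Eed+/+ peaks (23.5%, 6.81% to 49.9%) in theirs.

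**Figure D2:**
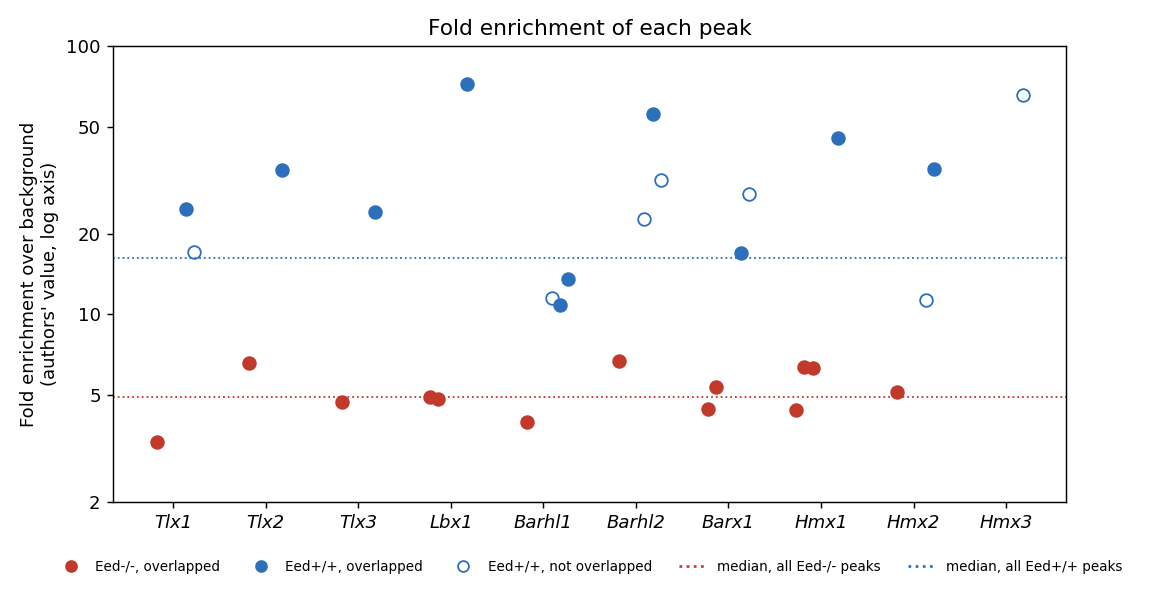
Fold enrichment over background as the authors computed it (log axis) for every peak at each gene, Eed-/- in red to the left and Eed+/+ in blue to the right, with filled circles where the other list has an overlapping peak and dotted lines for the median of each whole list, 4.91 in Eed-/- and 16.2 in Eed+/+. The Eed-/- peaks sit between 3.34 and 6.68 and the Eed+/+ peaks between 10.8 and 71.9, with no Eed-/- point at Hmx3.

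The RING1B level, the tags of a peak per kb of its own width scaled to 1000000 mapped tags, was compared over the 10 Eed+/+ peaks with an Eed-/- partner. The level was lower in Eed-/- mESCs in 10 of 10 pairs, as in 100% of all pairs, but when scaled to the tags inside all peaks of each list it was higher in 5 of the 10, against 91.3% of all pairs. With mapped tags as the scale the median level was 1.24 in Eed-/- and 8.26 in Eed+/+ cells, against 1.33 in Eed-/- and 5.78 in Eed+/+ cells over all 1247 pairs. The median of the members thus stood near that of all pairs in Eed-/- cells and above it in Eed+/+ cells. Both Barhl1 pairs were below the all-pairs median in each genotype, at 0.914 in Eed-/- and 3.07 and 3.35 in Eed+/+ cells. Over the 10 pairs the ratio Eed-/- to Eed+/+ had a median of 0.146, against 0.225 (quartiles 0.179 and 0.303) over all pairs. Both lists required more than 100 tags at depths that differ 4.18-fold, so that Eed-/- peaks could be listed at lower levels than Eed+/+ peaks, and the inverse of the depth ratio is 0.239.

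With 1 Eed-/- peak per pair, each over its own width, the ratio was lowest at Barx1, 0.120 (95% counting interval 0.103 to 0.139), rank 22 of 1247 from the lowest. It was 0.123 (0.110 to 0.138) at Hmx2, 0.130 at Barhl2, 0.135 at Tlx2, 0.137 at Lbx1 and 0.154 (0.137 to 0.173) at Tlx1. The intervals of these 6 genes overlap, which does not settle their order, and no difference between genes was tested. Hmx1 and Tlx3 were higher, at 0.181 (0.161 to 0.204) and 0.201 (0.182 to 0.222), but the interval of Hmx1 overlaps those of Tlx1 and Tlx3. Barhl1 had the highest values, 0.272 (0.221 to 0.338) and 0.298 (0.241 to 0.369) for its 2 pairs, which share 1 Eed-/- peak, and the interval of the lower one overlaps that of Tlx3. Among the paired peaks Barhl1 had the lowest level in both genotypes, 0.914 in Eed-/- and 3.07 and 3.35 in Eed+/+ cells, whereas Tlx2 had the highest in both, 1.85 in Eed-/- and 13.7 in Eed+/+ cells. The order of the ratios depends on the measure. With the tags of all overlapping Eed-/- peaks spread over the Eed+/+ peak, the ratio was lowest at Lbx1 (0.0391), followed by Barx1 (0.0661). On that measure it was highest at Barhl1 (0.564 for each pair), where the Eed-/- peak is wider than its partners. There all 302 tags of the 1 Eed-/- peak were set against each of its 2 partners in turn. The same tags thus entered both pairs, and 0.564 overstates the ratio over the 2 partners together.

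**Figure D3:**
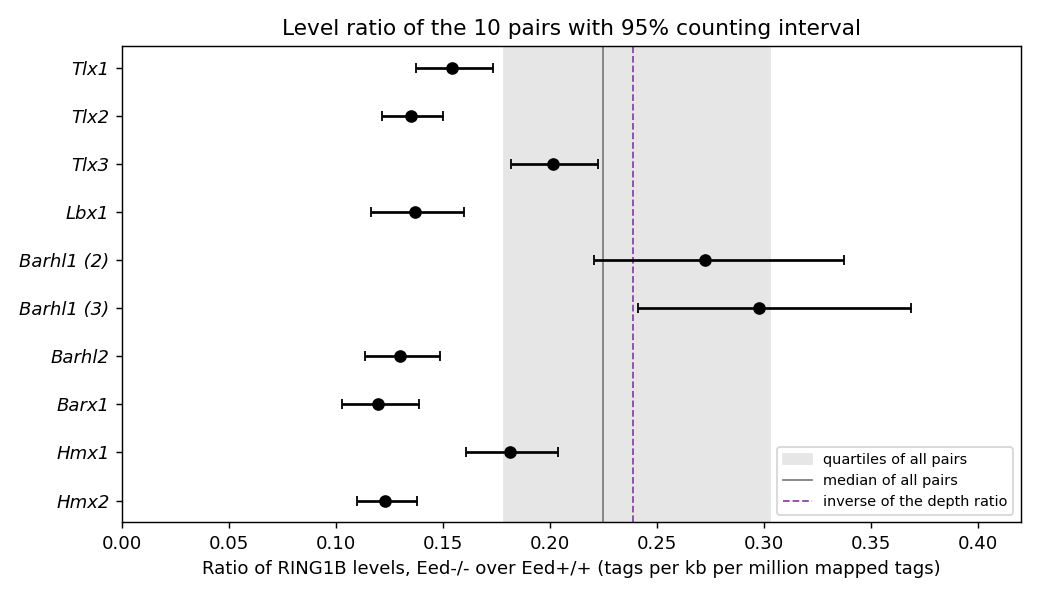
Ratio of the RING1B level in Eed-/- over Eed+/+ cells (tags per kb per 1000000 mapped tags) for each of the 10 pairs, with 95% intervals from the tag counts, the quartiles of all pairs (grey, 0.179 to 0.303) and the inverse of the depth ratio (dashed, 0.239). All 10 ratios are below 1 on this scale, although 5 of 10 exceed 1 when levels are scaled to the tags inside all peaks, and 8 of the 10 lie below the median of all pairs, 0.225.

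At the depth of the Eed+/+ library few of the Eed-/- peaks would have passed the threshold of 100 tags. Scaled to that depth, the Eed-/- peaks of Tlx3 (133 tags), Tlx2 (132) and Hmx2 (109) stayed above 100, 3 of 13, against 6.63% of all Eed-/- peaks. The level ratios at these 3 genes were 0.201, 0.135 and 0.123 in that order. The other 10 held between 32.3 and 95.1 scaled tags, Tlx1 being the nearest below. An FDR of 1% or less, the authors' estimate of the share of false peaks, was reached by 6 of the 13 Eed-/- peaks, against 24.1% of all: the 3 of Hmx1 and those of Tlx3, Barhl2 and Hmx2. All 17 Eed+/+ peaks had an FDR of 0, which was also the median and the upper quartile over all 2347 Eed+/+ peaks.

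The median width of the peaks at these genes was above that of the whole list in both genotypes. The 13 Eed-/- peaks had a median width of 2992 bp, against 2155 bp for all Eed-/- peaks, and 5 of 13 (38.5%, exact 95% interval 13.9% to 68.4%) were among the widest 10% of the list. The 17 Eed+/+ peaks had a median of 4452 bp, against 2665 bp for all, and 6 of 17 (35.3%, 14.2% to 61.7%) were among the widest 10%. Over the pairs the median width ratio of Eed-/- to Eed+/+ was 0.584, against 0.833 over all pairs. In 7 of 10 pairs the Eed+/+ peak contained the whole Eed-/- peak, against 57.4% of all pairs, and at Barhl1 the Eed-/- peak was wider than either partner.

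By gene, Tlx2 came closest in summed peak width, with 4258 bp in Eed-/- cells against 4452 bp in Eed+/+ cells, a ratio of 0.956. Barhl1 followed with 4698 bp in Eed-/- and 6206 bp in Eed+/+ cells. Hmx2, Hmx1 and Tlx3 had ratios of 0.613, 0.548 and 0.514. At Barx1 and Tlx1 the Eed-/- peaks summed to 0.413 and 0.408 of the Eed+/+ width. The ratio was lowest, apart from Hmx3, at Barhl2 (2992 bp in Eed-/- and 12796 bp in Eed+/+ cells, 0.234) and Lbx1 (3615 bp in Eed-/- and 13081 bp in Eed+/+ cells, 0.276).

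**Figure D4:**
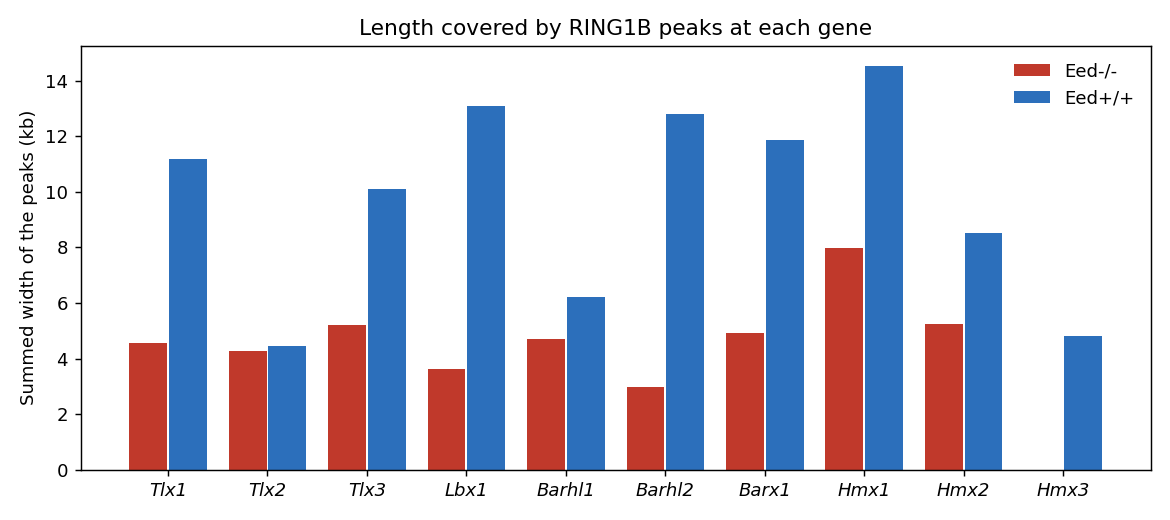
Summed width in kb of the RING1B peaks at each gene, with Eed-/- (red) to the left of Eed+/+ (blue). The Eed-/- bar is the shorter at all 10 genes, nearly level at Tlx2 and absent at Hmx3.

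CpG islands within peaks of both genotypes had a larger median length than those in Eed+/+ peaks alone. All 13 Eed-/- peaks covered a CpG island, against 95.7% of all Eed-/- peaks, and 15 of the 17 Eed+/+ peaks did, against 95.1% of all Eed+/+ peaks. The exceptions were the flanking peaks upstream of Barhl2 and of Hmx2. Of the islands in these peaks or genes, 18 lay in peaks of both genotypes, with a median of 950 bp and 101 CG dinucleotides. A further 8 lay in Eed+/+ peaks alone, with a median of 414 bp and 38 CG dinucleotides, among which Hmx3 (2807 bp) was the longest, and 1 island, at the start of Barhl1, lay in neither list. Over the genome the islands in peaks of both genotypes had a median of 1075 bp and those in Eed+/+ peaks alone 583 bp, so the same order held over the whole lists.

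At least 1 start site in the GENCODE annotation was covered at 8 genes in Eed-/- and at 10 genes in Eed+/+ cells. Such coverage is not given here for all genes of the lists, so these counts have no background. Lbx1 and Hmx3 were the 2 genes with such a start site covered in Eed+/+ cells alone, while at Hmx2 this was so for 1 of its 2 RefSeq promoters. Summits of the paired peaks lay within 87 bp of each other at Tlx1, Tlx2, Tlx3, Hmx1 and Hmx2. At Barhl1, Barhl2, Barx1 and Lbx1 they lay from 708 to 3598 bp apart. The median separation was 398 bp, against 97 bp (quartiles 32 and 468) over all pairs.

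The surroundings of the 10 genes within 50 kb held few other peaks. An Eed+/+ peak assigned to Bub3, a spindle checkpoint gene, began 19 bp past the end of Hmx2 (1282 bp, fold enrichment 17.2) and had no Eed-/- overlap, so that RING1B calls ran almost without a break across Hmx2 in Eed+/+ cells. Lbx2, a homeobox relative of Lbx1 that lies near Tlx2, had an Eed+/+ peak 16913 bp from Tlx2 (fold enrichment 20.1) but none in Eed-/- mESCs. The 1 Eed-/- peak nearby without an Eed+/+ overlap was assigned to Ptpdc1 (117 tags, fold enrichment 6.51), 36620 bp from Barx1. Pcgf1, which encodes a PRC1 subunit, lies 8093 bp from Tlx2, and neither list names it as the nearest gene of a peak.

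Other NK-like homeobox genes and other transcription factors of the hindbrain and dorsal spinal cord were counted in the same way. Of 36 further NK-like genes, 25 had an Eed-/- peak and 29 an Eed+/+ peak. An overlapping pair was present at 24 of those 29, against 60.7% of all genes named in the Eed+/+ list. Eed-/- peaks overlapped 25 of their 48 Eed+/+ peaks (52.1%), against 53.1% of all Eed+/+ peaks. The median level ratio at the strongest pair of each gene was 0.174, against 0.137 for the 9 genes above. A median over the strongest pair of each gene is not given here for the whole lists. The lowest ratios were at Nkx2-1 (0.0819), a thyroid, lung and forebrain factor, and Nkx2-3 (0.103), a spleen and gut factor. The highest were at Dlx3 (0.239), an ectodermal and placental factor, and Dbx1 (0.223), a spinal interneuron factor.

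Of 19 names of hindbrain and dorsal spinal cord factors, of which Drgx and Prrxl1 are names of 1 gene, 15 had an Eed-/- peak and 18 an Eed+/+ peak. An overlapping pair was present at 15 of those 18, against the same 60.7% of all genes. Eed-/- peaks overlapped 21 of their 38 Eed+/+ peaks (55.3%, against 53.1% of all), with a median level ratio of 0.159. Lhx2 (0.115), a LIM-homeobox gene of forebrain and eye, and Gsx2 (0.117), of the ventral forebrain, had the lowest ratios. Prrxl1 (0.272) and Pou4f1 (0.229), both of sensory neurons, had the highest. Among these lists, Lbx2, Dlx4, Hlx, Msx2, Nkx6-3, Isl1, Lhx9 and Olig3 shared with Hmx3 an Eed+/+ peak and no Eed-/- peak, with Eed+/+ fold enrichments at the strongest peak from 10.3 to 32.7, below the 65.7 of Hmx3.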

How the data were processed

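The authors mapped single-end tags to the mouse genome (mm9) with bowtie, excluding tags without a unique position. Peaks came from MACS, with an FDR under 2% and more than 100 tags per peak required, and nearest genes from Cisgenome. For the tool versions and the MACS control library, the entry is "not given in the sources used here". The deposited lists (GFF3) give each peak's start, end and an attribute field with the raw tag count, the ratio (fold enrichment) over background, the FDR in percent, a MACS p-value score on a log10 scale, the nearest gene and its distance. Flags for overlap and histone marks in the same field are the authors' comparisons and were not used. The 3 Eed-/- lanes were pooled before peak calling.

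From these values the width (end minus start plus 1), tags per kb and the level, tags per kb per 1000000 mapped tags, were computed without subtraction of input. Mapped tags came from the study's methods. Pairs joined each Eed+/+ peak to the Eed-/- peak that shared most bases with it (at least 1 bp). Shares carry exact (Clopper-Pearson) 95% intervals and level ratios exact intervals from both tag counts, which cover counting error only. No test was made, since each genotype has 1 list. Genes came from GENCODE M1 (NCBIM37, the build of mm9). The island search added 17 for a CG, took off 1 for any other base, and required 200 bp, 50% GC and 0.6 for observed over expected CG. RefSeq promoters were placed in mm9 by exact unique match. The overlap, interval and island code was checked on simulated data.

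The genes and the 2 further gene lists were chosen with earlier results of these data known. All 10 genes and all their peaks are named, with any other gene nearest to a peak or annotated within 50 kb that bears on them, and the 2 highest and 2 lowest level ratios of each further list. The genes of these lists with Eed+/+ peaks alone were named after their values were seen. The alternatives were a reciprocal overlap of 50%, an FDR limit of 1%, Eed-/- tags scaled to the Eed+/+ depth, peaks within 10 kb whatever their nearest gene, and other scalings and pairings. CBX7 libraries of the series were not analysed here. Python 3.11.15, numpy 2.4.6, scipy 1.17.1, numba 0.67.0 and matplotlib 3.10.9 were used.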

Additional observations from a re-analysis of the deposited data

How the results depend on the processing

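No paired analysis was possible because the lists hold 1 call per genotype, and for the same reason no replicate could be left out. Requiring an overlap of 50% of both peaks kept 6 of the 13 Eed-/- peaks overlapped (46.2%). It left 35.3% of the Eed+/+ peaks overlapped, at 6 genes. A stricter rule scores the same peaks again and can only lower these counts, so the counting intervals do not measure the change. Taking every peak within 10 kb added a Bub3 peak and gave 55.6%, and joining the Eed-/- peaks of a pair gave a width ratio of 0.599. With both lists limited to an FDR of 1%, 23.5% of the Eed+/+ peaks were overlapped, at 4 genes (Barhl2, Hmx1, Hmx2 and Tlx3). With Eed-/- peaks held to more than 100 tags at the Eed+/+ depth, 17.6% were overlapped, at 3 genes (Hmx2, Tlx2 and Tlx3). The median level ratio was 0.169 from the deposited fold enrichments and 0.104 when the tags of all overlapping Eed-/- peaks were spread over the Eed+/+ peak. Scaled to the tags inside all peaks it was 1.02, so that the direction turned. Those totals were 439317 tags over 4400377 bp in Eed-/- (99.8 tags per kb) and 739042 tags over 7475199 bp in Eed+/+ (98.9 tags per kb), and they move with how much was called. Leaving out the Barhl1 pairs, an alternative chosen after seeing the data, gave 0.136 for the level ratio and 0.522 for the width ratio, against 0.146 and 0.584. Where a list holds no peak, that genotype has no value.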
